A study of Mus musculus with 6 samples.

Results

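The Notch genes of the fractured periosteum were followed as a set of 10 genes chosen by symbol. The set held the ligands Jag1, Jag2, Dll1 and Dll4, the receptors Notch1, Notch2, Notch3 and Notch4, and the transcriptional targets Hes1 and Heyl. All 10 were among the 30406 genes counted in every library, and each was described in every nuclear population, with most detail on endothelial, mural and immune nuclei.

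Nuclei came from the tibial periosteum of wild-type C57BL6 mice (C57BL/6ScNj in the study's methods), males and females mixed, 12 weeks old. Uninjured periosteum, with the marrow flushed out, was collected from 4 mice per library. Injured periosteum was collected together with the hematoma at day 3, 5 or 7 after an open, non-stabilized tibial fracture, from 4 to 9 pooled mice per library. Nuclei were sorted by Sytox staining and sequenced with 3′ droplet chemistry that counts unique molecular identifiers (UMIs), so that 1 UMI stands for 1 captured RNA molecule. The 6 libraries were 2 of uninjured periosteum, 2 of day 3, 1 of day 5 and 1 of day 7. All groups share 1 genotype, with no transgene named for them. The study's methods give ketamine and medetomidine anesthesia, atipamezole reversal and buprenorphine analgesia for the fracture surgery, and name none for uninjured mice. Each library pools its animals, so the spread between libraries is not a spread between single mice. The hematoma was taken only after fracture, and these drugs are named only for it. The change of tissue sampled, the drugs and the response of the periosteum therefore cannot be told apart.

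Notch receptors are single-pass membrane proteins that are cut when a Jagged or Delta-like ligand on a neighbouring cell pulls on them. The released intracellular domain enters the nucleus, binds the DNA-binding protein RBPJ and switches on genes of the Hes and Hey families. In blood vessels the pathway is known for setting arterial identity, for choosing the leading cell of a sprout and for keeping pericytes and smooth muscle cells (SMCs) attached to the vessel wall.

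The 6 libraries held 13551 barcodes with a median of 892 to 2806 UMIs per barcode, of which 8067 passed the filters and 5965 remained once myogenic nuclei were removed. Of 25 clusters, 21 were named from marker genes and 4, with 506 nuclei or 5.91% to 19.4% of a library, stayed unnamed. Clustering used none of the Notch pathway genes described here. The vascular, immune and skeletal clusters were joined into 4 classes with 5004 nuclei: stromal (stem/progenitor-like, fibroblast-like, injury-induced fibrogenic-like, osteoblast-like and chondrocyte-like), endothelial, mural (pericyte- and SMC-like) and immune. In order of uninjured replicates 1 and 2, day 3 replicates 1 and 2, day 5 and day 7, the endothelial class held 210, 254, 40, 66, 238 and 78 nuclei. The mural class held 62, 64, 4, 10, 73 and 32, and the immune class 23, 77, 136, 712, 545 and 151. Day 3 replicate 1, with 4 mural nuclei, fell under the minimum of 10 and was left out of the mural sums. Pecam1, an endothelial marker, reached 1086 to 1978 counts scaled to a common total of UMIs (CPM) in endothelial nuclei. Ptprc, an immune marker, reached 375 to 2076 CPM in immune nuclei. The 23 immune nuclei of uninjured replicate 1 were an exception in quality, with a median of 576 UMIs. Their summed level was 5679 CPM over 6 of 6 muscle markers, against 105 to 1836 CPM in the immune nuclei of the other libraries. Markers of other populations were found in them too, with Pecam1, Mcam and Pi16 at 321.5 CPM each and Lpl at 804 CPM. Of the immune markers, Ptprc stood at 375 CPM and Dock2 at 804 CPM, while Csf3r was at 0 CPM. Endothelial nuclei held the muscle marker Ttn at 724 CPM in day 3 replicate 1 and 1194 CPM at day 7. In the other libraries they held 106 to 328 CPM of it. The part of such RNA of other cell types in the immune and endothelial comparisons was not tested. One barcode was shared between day 3 replicate 2 and day 5. Upstream counting used version 7.1.0 of its software for uninjured replicate 2 and both day 3 libraries and version 6.0.0 for the others, so the version moves partly with time.

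The promoters of 4 members are printed because their genes divide the vessel wall: Dll4, Notch4 and Jag2 were highest in endothelial nuclei and Notch3 in mural nuclei. Each is the 300 bases from 250 before to 50 after the annotated start (RefSeq, GRCm38.p6), read 5′ to 3′ on the gene's strand. Dll4 lies on the plus strand at chr2:119325534-119325833, Notch4 on the plus strand at chr17:34564045-34564344, Jag2 on the minus strand at chr12:112929446-112929745 and Notch3 on the minus strand at chr17:32166841-32167140. Capitals mark the ETS core GGAAG or its reverse CTTCC, the letters recognised by a family of factors active in endothelial cells.
Dll4: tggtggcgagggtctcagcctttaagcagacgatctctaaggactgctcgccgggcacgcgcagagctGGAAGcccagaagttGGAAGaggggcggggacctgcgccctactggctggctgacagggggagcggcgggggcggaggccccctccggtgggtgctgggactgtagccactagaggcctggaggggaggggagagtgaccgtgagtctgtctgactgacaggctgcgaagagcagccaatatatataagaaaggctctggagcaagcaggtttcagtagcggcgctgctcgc
Notch4: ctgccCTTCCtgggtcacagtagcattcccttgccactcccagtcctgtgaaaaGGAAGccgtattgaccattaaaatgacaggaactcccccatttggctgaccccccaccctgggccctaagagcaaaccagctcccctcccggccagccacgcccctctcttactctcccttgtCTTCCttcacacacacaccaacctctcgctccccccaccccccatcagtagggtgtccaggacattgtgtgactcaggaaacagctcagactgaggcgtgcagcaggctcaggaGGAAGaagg
Jag2: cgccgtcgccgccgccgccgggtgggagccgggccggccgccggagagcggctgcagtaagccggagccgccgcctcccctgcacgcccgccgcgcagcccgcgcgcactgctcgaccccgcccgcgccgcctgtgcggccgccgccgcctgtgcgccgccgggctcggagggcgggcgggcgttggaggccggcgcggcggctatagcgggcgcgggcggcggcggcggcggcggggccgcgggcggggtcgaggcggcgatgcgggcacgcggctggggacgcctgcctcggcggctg
Notch3: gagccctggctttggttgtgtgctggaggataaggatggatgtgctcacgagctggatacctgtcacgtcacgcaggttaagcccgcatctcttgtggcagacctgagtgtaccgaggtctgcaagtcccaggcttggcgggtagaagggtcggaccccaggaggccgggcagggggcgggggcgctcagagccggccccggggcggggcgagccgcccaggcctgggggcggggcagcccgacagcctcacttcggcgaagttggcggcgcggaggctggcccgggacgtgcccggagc
GGAAG or CTTCC stood at 2 places in the Dll4 promoter and 4 in that of Notch4, and at none in those of Jag2 and Notch3. These letters occur in 71.4% of the 32851 promoters of this length, so a match describes the sequence and no more. The RBPJ core TGGGAA or its reverse TTCCCA, which can share the letters GGAA with the ETS core, stood in 25.6% of all promoters and in none of the 9 windows found for 8 members. Hes1 and Heyl are named only. The gene bodies, by GENCODE in GRCm38, ran from 119325784 to 119335962 on chromosome 2 for Dll4, from 34564268 to 34588503 on chromosome 17 for Notch4, from 112907819 to 112929776 on chromosome 12 for Jag2 and from 32120820 to 32166852 on chromosome 17 for Notch3, and all 4 were annotated as protein coding.

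Each member was first measured as its CPM in a class, the gene's UMIs scaled to the summed UMIs of that class in a library, with an exact Poisson 95% interval that covers counting error only. Of the 10 genes, 5 were highest in endothelial nuclei in 6 of 6 libraries (Notch1, Notch4, Jag2, Dll1 and Dll4) and Notch2 was highest in immune nuclei in 6 of 6. Notch3 and Jag1 were highest in mural nuclei in 5 of the 5 libraries that held enough of them, and Hes1 and Heyl in 4 of 5.

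Among the ligands, Jag1, a Jagged ligand needed for arterial smooth muscle coats, was the one found in all 4 classes in every library. In mural nuclei it measured 239 and 446 CPM in the uninjured libraries, 581 CPM in day 3 replicate 2, 294 CPM at day 5 and 314 CPM at day 7. In endothelial nuclei it measured 184 and 168 CPM in the uninjured libraries, 128 and 198 CPM at day 3, 151 CPM at day 5 and 141 CPM at day 7. The mural level was above the endothelial one in each of the 5 libraries, and its counting interval stood clear of all other classes in 3 of them. Immune nuclei held 41.8 to 91.3 CPM and stromal nuclei 51.3 to 126 CPM.

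The other Jagged ligand, Jag2, was almost limited to endothelial nuclei. It measured 76.3 and 75.4 CPM in the uninjured libraries, 53.3 and 75.9 CPM at day 3, 53.7 CPM at day 5 and 44.5 CPM at day 7. No other class exceeded 15.8 CPM in any library, a value that rested on 2 UMIs in the stromal nuclei of uninjured replicate 1. Mural nuclei held 2 Jag2 UMIs in all libraries together, at 2.17 CPM with an interval of 0.263 to 7.85.

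Dll1, a Delta-like ligand with roles in arterial maintenance and in lymphocyte fate, followed the same division at a low level. Its endothelial level was 69.1 and 36.9 CPM in the uninjured libraries, 21.3 and 32.0 CPM at day 3, 32.5 CPM at day 5 and 22.2 CPM at day 7. Uninjured replicate 1 was the highest, and every fractured library lay below both uninjured ones. The counts were small, with 2 UMIs in day 3 replicate 1 and 3 at day 7.

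Dll4, the ligand that restrains neighbouring cells of a sprouting vessel, ran the other way. Its endothelial level was 28.6 and 31.0 CPM in the uninjured libraries, 53.3 and 75.9 CPM at day 3, 73.7 CPM at day 5 and 37.1 CPM at day 7. All 4 fractured libraries lay above both uninjured ones, although the intervals of day 3 replicate 1 and day 7, each on 5 UMIs, reached below the uninjured values. In the other classes the level stayed at or under 10.3 CPM, which was 3 UMIs in the mural nuclei of day 5.

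Among the receptors, Notch1, which acts in endothelial cells and in blood cell development, was highest in endothelial nuclei. It measured 231 and 157 CPM in the uninjured libraries, 159.8 and 202 CPM at day 3, 122 CPM at day 5 and 163 CPM at day 7. Injured and uninjured libraries overlapped. Immune nuclei held 19.2 to 77.9 CPM where any UMI was found, and in uninjured replicate 1 they held no Notch1 UMI, which at that depth allows a level of up to 161 CPM.

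Notch2, a widely expressed receptor that shapes marginal zone B cells and osteoclasts, was highest in immune nuclei. It measured 214 and 408 CPM in the uninjured libraries, 397 and 368 CPM at day 3, 327 CPM at day 5 and 313 CPM at day 7. Stromal nuclei came next with 94.7 to 274 CPM, then mural nuclei with 90.4 to 147 CPM, and endothelial nuclei with 42.9 to 79.9 CPM, and the ranges of stromal and mural nuclei overlapped. The immune interval stood clear of the other classes in 4 of 6 libraries, whereas the lowest immune value rested on 4 UMIs.

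Notch3, the receptor of smooth muscle cells and pericytes, was divided most sharply between classes, with the largest fold of the 9 members tested below. In mural nuclei it measured 599 and 1822 CPM in the uninjured libraries, 1834 CPM in day 3 replicate 2, 1138 CPM at day 5 and 1682 CPM at day 7. The uninjured replicates were the lowest and the second highest of these 5, so the groups overlapped. In the stromal, endothelial and immune classes the highest level was 53.6 CPM, which was 1 UMI in immune nuclei. After thinning each nucleus to 500 UMIs, Notch3 was seen in 39.5% ± 14.8 (SD, n = 5 libraries) of mural nuclei, and in 0.678% of all endothelial nuclei, which served as the background. The median depths were 2698 and 2220 UMIs, and without thinning the pooled shares were 77.5% and 1.81%.

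Notch4, the receptor found mainly in endothelium, measured 76.3 and 37.7 CPM there in the uninjured libraries, 63.9 and 71.9 CPM at day 3, 91.2 CPM at day 5 and 66.7 CPM at day 7. One uninjured library was the lowest and the other was the second highest, so the groups overlapped. All mural nuclei together held 9 Notch4 UMIs (9.78 CPM, interval 4.47 to 18.6) and all stromal nuclei 21 (2.21 CPM).

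The targets were low in every class. Hes1, a repressor that responds to Notch and to other signals, measured 24.5 and 47.9 CPM in uninjured mural nuclei, 90.4 CPM in day 3 replicate 2, 30.8 CPM at day 5 and 67.3 CPM at day 7. Endothelial nuclei held 28.7 to 42.9 CPM and stromal nuclei 4.74 to 47.3 CPM. Heyl, a Hey-family repressor of the vessel wall, was found in mural nuclei at 0 UMIs in uninjured replicate 1, which allows up to 18.4 CPM, and at 38.9 CPM in uninjured replicate 2. It then measured 142 CPM in day 3 replicate 2, 92.3 CPM at day 5 and 89.7 CPM at day 7. The 3 injured libraries thus lay above both uninjured ones, on 11, 27 and 4 UMIs. In the stromal, endothelial and immune classes Heyl stayed at or under 12.8 CPM.

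Thinned shares of the scarcer genes were close to single UMIs. At 500 UMIs Dll4 was seen in 1.76% ± 1.22 of endothelial nuclei (SD, n = 6), Dll1 in 1.5% ± 1.73, Jag2 in 2.60% ± 1.61 and Notch4 in 2.57% ± 2.27. Pooled over libraries, the background share in stromal nuclei was 0 of 2227 nuclei for Dll4, which allows up to 0.135%, and 0.0449% for the other 3 genes, at a median of 2805 UMIs. Without thinning these genes were seen in 10.9%, 9.48%, 15.2% and 15.0% of all endothelial nuclei, in the order of the sentence before last, against 0.269%, 0.404%, 0.583% and 0.897% of stromal nuclei.

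The classes were then compared in a single fit over 23 class-by-library sums with the library as a block, using the quasi-likelihood test of edgeR and the Benjamini-Hochberg adjustment over 8033 genes. Each class was set against the mean of the other 3, and log2 fold changes are given with standard errors. For edgeR these were derived from the test, as the absolute log2 fold change over the square root of its F value. The test measures the spread between libraries. Low-count filtering kept 9 of the 10 members and left out Dll1. A gene high in 1 class passes that filter through that class, so the counts below describe the members and the share of all genes called is given beside them. Nuclei were grouped by other genes that vary with these, so the contrasts describe groups that were bound to differ in many genes.

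In endothelial nuclei Dll4 was higher by 4.96 ± 0.41 on the log2 scale, Jag2 by 4.80 ± 0.37 and Notch4 by 3.50 ± 0.37. Notch1 was higher by 2.30 ± 0.27 (adjusted p = 6.17e-07) and Hes1 by 0.86 ± 0.31 (adjusted p = 0.0402). The Hes1 call was the least steady of these, and was lost without uninjured replicate 2 (adjusted p = 0.0857), day 3 replicate 2 (0.0919), day 5 (0.217) or day 7 (0.0704). It was also lost with no library term (adjusted p = 0.0962), the top doublet scores removed (0.13) or unnamed clusters in their closest class (0.0615). Called lower were Notch3 at -3.56 ± 0.32, Heyl at -2.86 ± 0.87 and Notch2 at -1.83 ± 0.21. The Heyl call was lost without day 5 (adjusted p = 0.151). The 5 higher and 3 lower members stood beside 14.9% of all genes called higher and 12.4% called lower. The median over the 9 tested members was 0.86, beside -0.03 over all genes.

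In mural nuclei Notch3 was higher by 7.19 ± 0.21 (adjusted p = 2.17e-16), Heyl by 5.75 ± 0.53, Jag1 by 1.91 ± 0.22 and Hes1 by 1.60 ± 0.37 (adjusted p = 0.00317). No member was called lower. Of all genes, 12.2% were called higher and 10.5% lower in this class. The members' median was 0.42, beside -0.07 over all genes.

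In immune nuclei Notch2 was the only tested member called higher, by 1.60 ± 0.17 (adjusted p = 1.29e-07). The fitted values were -3.00 ± 0.31 for Notch3, -1.94 ± 0.40 for Hes1 and -1.43 ± 0.25 for Jag1, all 3 called lower. This class differed most widely in general, with 22.4% of genes called higher and 22.4% lower, and the medians were -1.42 over the members and -0.04 over all genes. In stromal nuclei Notch2 was called higher, by 0.60 ± 0.17 (adjusted p = 0.0113), and 5 members were called lower, from -3.30 ± 0.68 for Dll4 to -0.77 ± 0.22 for Jag1. Here 17.5% of genes were called higher and 10.5% lower. The stromal Notch2 call was lost without day 5 (adjusted p = 0.112) or day 7 (0.0739), and the Jag2 call without day 5 (0.173). The Jag1 call was lost without day 3 replicate 1 (adjusted p = 0.0555) or with no filter on low counts (0.071).

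**Figure D1:**
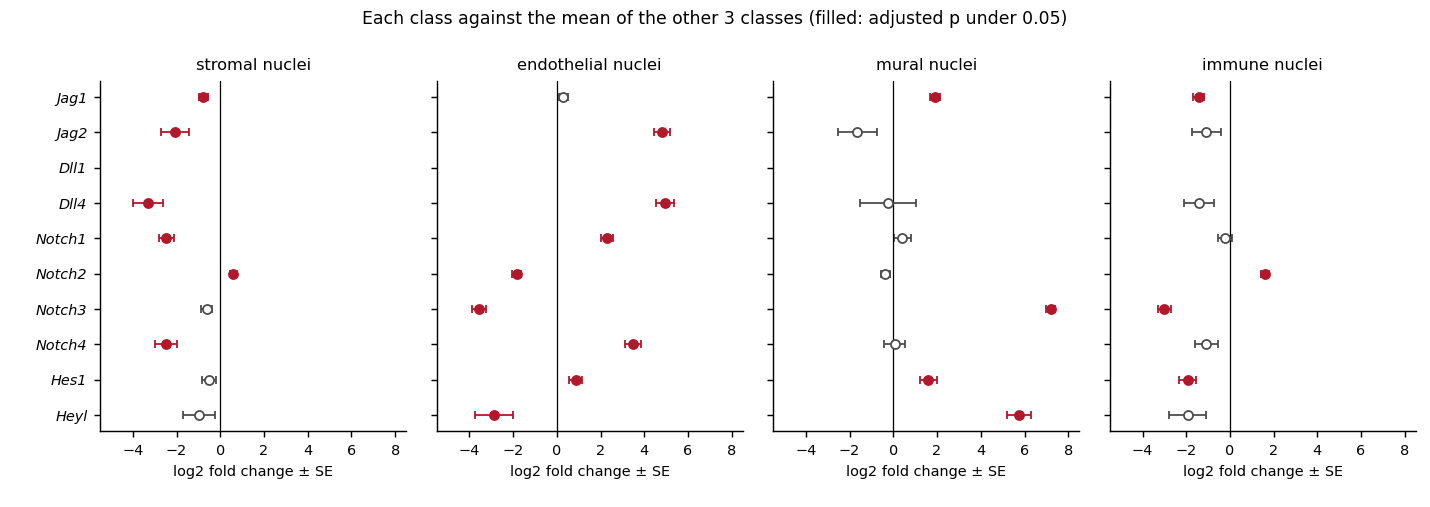
Log2 fold change (x axis) of each gene (y axis) in a class against the mean of the other 3 classes, from edgeR, with bars of 1 SE; filled points have an adjusted p under 0.05, and Dll1 was not tested. Dll4, Jag2 and Notch4 lie at 3.50 to 4.96 in endothelial nuclei, Notch3 and Heyl at 7.19 and 5.75 in mural nuclei, and Notch2 at 1.60 in immune nuclei.

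The classes are not uniform, and within the endothelium the ligands divided by vessel type. The arterial-like cluster, led by Gja5, Sema3g and Bmx, held 608 CPM of Jag1 over all libraries. The venous-like cluster (Vwf, Selp) held 96.4 CPM and an unnamed-subtype cluster led by Adgrl4 and Kit held 97.5 CPM. By library, with at least 10 nuclei required, the arterial-like level of Jag1 was 547 and 544 CPM in the uninjured libraries and 516 CPM at day 5, above both other clusters in 3 of 3 libraries. Jag2 was also highest there over all libraries, at 200.5 CPM against 72.9 CPM in the Adgrl4 cluster and 36.5 CPM in the venous-like one, but stood first in 2 of 3 libraries only.

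Dll4 and Notch4 were low in venous-like nuclei. Dll4 measured 11 CPM there (interval 6.13 to 18.1), 88.9 CPM in the Adgrl4 cluster and 104 CPM in the arterial-like cluster. Notch4 measured 23.4 CPM, 102 CPM and 159 CPM in the same order. In each of 6 libraries both genes were higher in the Adgrl4 cluster than in the venous-like one. Dll1 did not share this order, with 47.5 CPM in venous-like nuclei, 25.7 CPM in the Adgrl4 cluster and 32.3 CPM in the arterial-like one, and the venous-like cluster was highest in 2 of 3 libraries. Notch1 lay between 149.8 CPM (venous-like) and 236 CPM in the lymphatic-like cluster of Mmrn1, Reln and Prox1, which was above the venous-like one in 2 of 3 libraries. Notch2 was highest in that lymphatic-like cluster, at 184 CPM against 27.6 to 54.8 CPM in the arterial-like, Adgrl4 and venous-like clusters, and in 3 of 3 libraries. A further endothelial cluster, led by Ccm2l and with a median of 744 UMIs per nucleus, held 88.2 CPM of Dll1 on 12 UMIs, of which 9 came from uninjured replicate 1.

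Mural nuclei split into a cluster led by Rgs5 and Trpc6 and an SMC-like cluster led by Myh11. Notch3 measured 1441 CPM in the first and 1304 CPM in the second, and was higher in the Rgs5 cluster in 3 of the 3 libraries with enough nuclei, by margins such as 1141 against 1129 CPM at day 5. Jag1 measured 351 and 378 CPM, so its order over all libraries was the reverse of that within the 3 libraries, where the Rgs5 cluster was higher. Heyl measured 80.3 CPM in the Rgs5 cluster (interval 55.9 to 112) and 43.3 CPM in the SMC-like one (26.8 to 66.2), and Hes1 62.0 and 24.8 CPM, neither with the same order in every library.

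Immune nuclei shared a high Notch2 level across their clusters, from 313 CPM in an antigen-presenting-like cluster (Bcl11a, Flt3) to 431 CPM in a monocyte-like one (Ccr2), with 372 CPM in macrophage-like nuclei (Hpgds, Mrc1) and 397 CPM in neutrophil-like nuclei (S100a9, Csf3r). Jag1 was less even. It measured 137 CPM in the cluster led by Arg1 and Hmox1 (interval 119 to 157) and 18.6 CPM in macrophage-like nuclei (13.4 to 25). By library, the Arg1 cluster stood at 67.9 CPM in uninjured replicate 2, 80.3 and 138 CPM at day 3, 164 CPM at day 5 and 94.4 CPM at day 7. The macrophage-like cluster stood at 31.5, 66.2, 9.03, 31.6 and 111 CPM in the same libraries, so that the Arg1 cluster was higher in 4 of 5 and lower at day 7, where the latter value rested on 5 UMIs. Set against the Hpgds, Ccr2, S100a9 and Bcl11a clusters together, the Arg1 cluster was highest in Jag1 in 1 of the 2 libraries with enough nuclei. The Arg1 cluster had no nucleus from uninjured replicate 1.

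**Figure D2:**
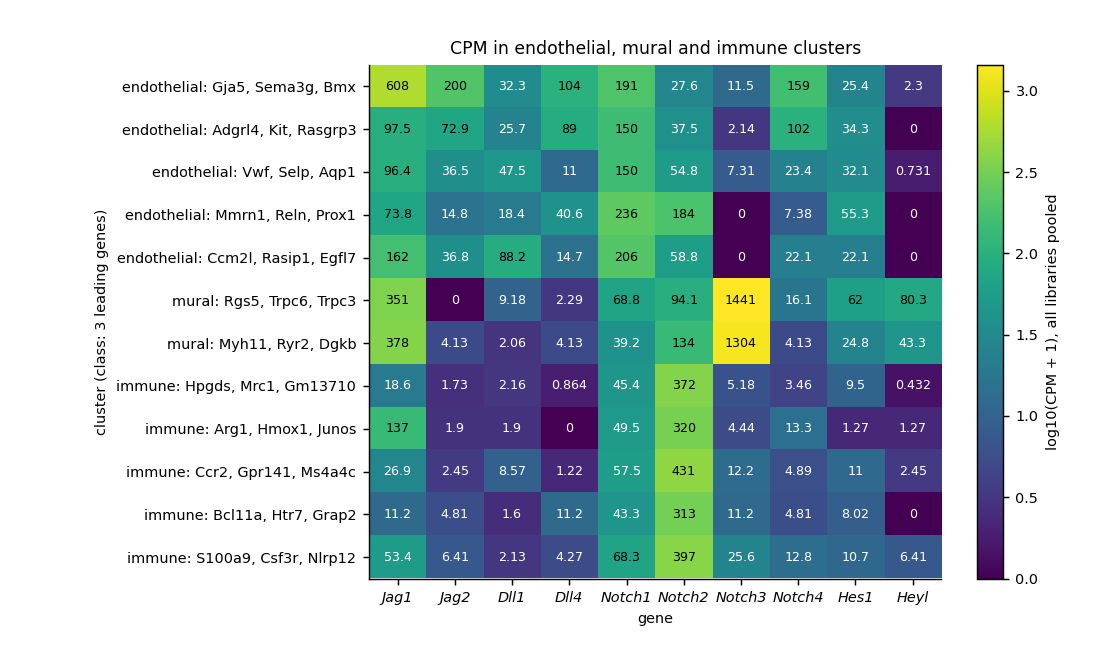
CPM of each gene (x axis) in the endothelial, mural and immune clusters (y axis, named by class and 3 leading genes) with all libraries pooled; colour is log10(CPM + 1) and the printed values are CPM. The Gja5 cluster holds 608 CPM of Jag1, the Vwf cluster 11 CPM of Dll4 beside 88.9 CPM in the Adgrl4 cluster, and the Arg1 cluster 137 CPM of Jag1.

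In the skeletal populations Notch2 was the receptor found throughout, at 194 CPM in both stem/progenitor-like and fibroblast-like nuclei, 237 CPM in injury-induced fibrogenic-like nuclei (IIFC-like), 271 CPM in osteoblast-like and 191 CPM in chondrocyte-like nuclei. Jag1 measured 137 CPM in stem/progenitor-like nuclei, 108 CPM in fibroblast-like, 88.8 CPM in IIFC-like, 68.4 CPM in osteoblast-like and 22.2 CPM in chondrocyte-like nuclei, whose interval of 15.4 to 31.1 lay under those of the other 4. Notch3 reached 39.4 CPM in osteoblast-like nuclei, and its 38 UMIs there came mostly from uninjured replicate 2 (17) and day 5 (20). Tendon-like nuclei held 209 CPM of Notch2 and 125 CPM of Jag1. Of the remaining populations, Schwann-like nuclei held 297 CPM of Notch2, osteoclast-like nuclei 205 CPM of Notch2 and 25.6 CPM of Jag1, and adipocyte-like nuclei 147 CPM of Jag1, most of it in uninjured replicate 2.

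The study reported a Notch score that was raised in its fibrogenic cells, along an inferred order starting from uninjured stem/progenitor cells. It also linked transcription factors specific to the fibrogenic cells to Notch pathway terms. Here the measure and the reference differ, so neither result was tested. Single genes were compared between IIFC-like nuclei and the stem/progenitor- and fibroblast-like nuclei of the same library, mostly after fracture. The fit used the 4 libraries with at least 10 nuclei on both sides, with the library as a block. Of the 5 members that passed the filter none was called by edgeR, beside 4.29% of all genes, and 1 had an unadjusted p under 0.05. DESeq2 also called none. That gene was Jag1, with a log2 fold change of -0.66 ± 0.25 (adjusted p = 0.222). In IIFC-like nuclei it measured 57.0 CPM in uninjured replicate 2, 39.5 CPM in day 3 replicate 2, 82.5 CPM at day 5 and 133 CPM at day 7. Fibroblast-like nuclei of the same libraries held 83.9, 112, 114 and 146 CPM and stem/progenitor-like nuclei 144, 83.6, 188 and 159 CPM, both higher in each library. The values of the other tested members in IIFC-like nuclei were 0.76 ± 0.60 for Notch1, 0.15 ± 0.19 for Notch2, -0.42 ± 0.47 for Notch3 and -0.24 ± 0.56 for Hes1.

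The time course was compared in each class. With 2 libraries against 2, an exact permutation test of a single gene cannot fall below p = 0.333, so only the fits across all genes were used, and days 5 and 7, with 1 library each, entered only among the 4 fractured libraries. Day 3 against uninjured gave no called member in any class. In stromal nuclei 5 members were tested, with 6.8% of all genes called, in endothelial nuclei 8, with 3.8% called, and in immune nuclei 3, with 0.229% called. None of these tests had an unadjusted p under 0.05, and DESeq2 called none. The mural class had no test, because 1 of the 2 day 3 libraries was too small. Dll4 had the highest value of the 8 endothelial members, at 1.06 ± 0.48 (adjusted p = 0.29), and Dll1 the lowest, at -0.95 ± 0.59 (adjusted p = 0.472). The median over those 8 was -0.16, beside -0.01 over all genes.

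Fractured against uninjured libraries likewise gave no called member, by edgeR or by DESeq2. The shares of all genes called were 5.29% in stromal nuclei (5 members tested), 8.0% in endothelial nuclei (8), 10.7% in mural nuclei (6) and 0.104% in immune nuclei (3). At an unadjusted p under 0.05 there were 0, 1, 2 and 0 members. In endothelial nuclei this was Dll4, at 0.99 ± 0.38 (adjusted p = 0.154). Endothelial composition moved as well: venous-like nuclei numbered 70, 88, 12, 26, 58 and 32 and nuclei of the Adgrl4 cluster, where Dll4 is high, 29, 51, 21, 29, 93 and 27 in the order of libraries above. Arterial-like nuclei, where Dll4 is also high, numbered 41, 54, 4, 7, 20 and 6. Within the Adgrl4 cluster Dll4 measured 84.2 and 45.9 CPM in the uninjured libraries, 95.8 and 123 CPM at day 3, 96.1 CPM at day 5 and 67.6 CPM at day 7, with overlapping groups. The part of composition in the class value was not tested further.

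In mural nuclei the 2 members were Heyl, at 1.98 ± 0.77 (adjusted p = 0.135), and Notch1, at 1.42 ± 0.64 (adjusted p = 0.202). The SMC-like cluster held 42 of 62 and 43 of 64 mural nuclei in the uninjured libraries and 4 of 10, 12 of 73 and 4 of 32 in the injured ones. Within the other mural cluster, led by Rgs5, Heyl was at 0 UMIs in uninjured replicate 1, which allows up to 148 CPM in its 20 nuclei, and at 39.9 CPM in uninjured replicate 2, 108 CPM at day 5 and 101 CPM at day 7. The part of composition in the mural Heyl and Notch1 values was not tested further. One library decided the Heyl call: without uninjured replicate 2 the comparison rested on a single uninjured library with no Heyl UMI, and the adjusted p became 0.0269. With the software version of the upstream counting as a term it was 0.0473. Mural Notch1 measured 12.2 and 38.9 CPM in the uninjured libraries, 103 CPM in day 3 replicate 2, 75.2 CPM at day 5 and 89.7 CPM at day 7, without overlap between the groups. These rested on 2, 13, 8, 22 and 4 UMIs. Of 7 endothelial markers, 5 and 7 were found in the uninjured mural nuclei and 4, 7 and 4 in the injured ones, with summed levels of 177 and 144 CPM before fracture and 168, 1008 and 404 CPM after it. Of them, only Flt1 and Kdr were above both uninjured values in every injured library. Flt1 went from 30.6 and 74.9 CPM to 129, 465 and 269 CPM. Kdr went from 0 and 3.00 CPM to 12.9, 44.4 and 22.4 CPM. Pecam1 went from 36.7 and 24.0 CPM to 12.9, 129.9 and 0 CPM and Ptprb from 24.5 and 21.0 CPM to 12.9, 133 and 22.4 CPM. Tek went from 55.05 and 8.99 CPM to 0, 82.05 and 0 CPM and Emcn from 30.6 and 8.99 CPM to 0, 78.6 and 89.7 CPM. Cdh5 was at 0 in uninjured replicate 1, day 3 replicate 2 and day 7. The part of endothelial RNA in the mural Notch1 value was not tested. The values of Notch3 and Jag1, the members highest in this class, were 0.17 ± 0.49 and 0.00 ± 0.51. Over the tested members the medians were -0.04 in stromal, -0.31 in endothelial, 0.26 in mural and 0.23 in immune nuclei, beside 0.11, -0.01, -0.01 and 0.15 over all genes.

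In immune nuclei the values were 0.23 ± 0.41 for Notch2, 0.83 ± 0.59 for Jag1 and 0.15 ± 0.72 for Notch1, none near the threshold. In stromal nuclei Hes1 had the lowest value, at -1.34 ± 0.63 (adjusted p = 0.267), and Notch2 the highest, at 0.61 ± 0.39. The stromal class itself differed from day 3 on. Its level of Pi16, a stem/progenitor marker, went from 1483 and 415.5 CPM in the uninjured libraries to 23.3 and 37.4 CPM at day 3. Of the fibrogenic markers, Postn went from 166 and 102 CPM to 1153 and 1416 CPM. Aspn, at 47.3 and 375 CPM before and 84.0 and 395 CPM at day 3, overlapped. The uninjured libraries held 27 and 68 stem/progenitor-like, 47 and 140 fibroblast-like and 4 and 12 IIFC-like nuclei. The day 3 libraries held 8 and 15 stem/progenitor-like, 46 and 111 fibroblast-like and 2 and 14 IIFC-like nuclei. Days 5 and 7 held 35 and 50 stem/progenitor-like, 251 and 118 fibroblast-like and 350 and 185 IIFC-like nuclei. The part of that shift was not tested.

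**Figure D3:**
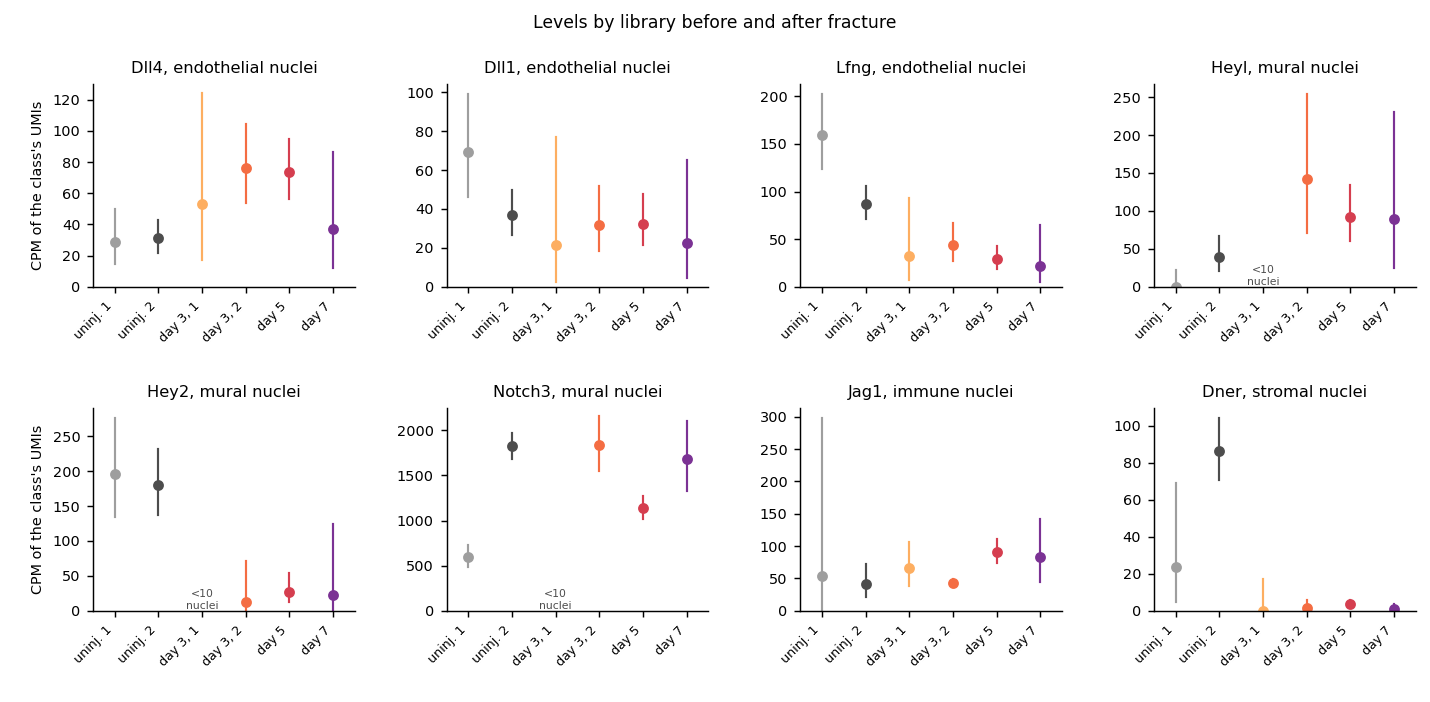
CPM (y axis, linear, from 0) by library (x axis) for 8 gene and class pairs, with exact Poisson 95% intervals; libraries with under 10 nuclei of the class are marked and left out. Endothelial Dll4 is at 28.6 and 31.0 CPM before and 37.1 to 75.9 CPM after fracture, Lfng at 159.7 and 87.1 CPM before and 22.2 to 44.0 CPM after, and mural Hey2 at 196 and 180 CPM before and 12.9 to 27.4 CPM after.

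Another 45 genes of the pathway were followed from a list of ligands, processing and glycosylating enzymes, trafficking proteins, nuclear factors and targets. In the time comparisons 3 of them passed the test, each at a lower level after fracture, in shares below those of all genes called. In endothelial nuclei this was 1 of 27 tested, beside 8.0% of all genes, namely Lfng, a Fringe glycosyltransferase that changes which ligands a Notch receptor answers to. It measured 159.7 and 87.1 CPM in the uninjured libraries, 31.9 and 44.0 CPM at day 3, 28.7 CPM at day 5 and 22.2 CPM at day 7. The groups did not overlap, and the log2 fold change was -2.0 ± 0.39 (adjusted p = 0.00916). Without uninjured replicate 1 it was -1.48 and missed the threshold (adjusted p = 0.126). Within the venous-like cluster it measured 226 and 100.3 CPM in the uninjured libraries, 69.3 and 62.9 CPM at day 3, 38.4 CPM at day 5 and 18.4 CPM at day 7. The groups did not overlap inside that cluster either, although the injured values rested on 2, 13, 10 and 1 UMIs.

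In mural nuclei 1 of 18 tested passed, beside 10.7% of all genes, namely Hey2, a Hey-family target of arterial smooth muscle. It measured 196 and 180 CPM in the uninjured libraries, 12.9 CPM in day 3 replicate 2, 27.4 CPM at day 5 and 22.4 CPM at day 7, where the injured values rested on 1, 8 and 1 UMIs. The log2 fold change was -3.19 ± 0.53 (adjusted p = 0.00413), and without day 5 it was -3.56 with an adjusted p of 0.0542. The make-up of the mural class moved with it. Nuclei of the SMC-like cluster numbered 42 and 43 in the uninjured libraries and 4, 12 and 4 in the injured ones, and Myh11, the smooth muscle myosin, measured 5003 and 4749 CPM before and 1446, 609 and 404 CPM after. Rgs5, a pericyte marker, went from 306 and 324 CPM to 1162, 1179 and 1032 CPM. Within the SMC-like cluster Hey2 was at 224 and 231 CPM in the uninjured libraries and at 66.4 CPM (4 UMIs in 12 nuclei) at day 5. The part of composition beyond these values was not tested.

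In stromal nuclei 1 of 31 tested passed, and 1 of 28 at day 3, beside 5.29% and 6.8% of all genes, namely Dner, a ligand-like membrane protein known from the nervous system. It measured 23.7 and 86.2 CPM in the uninjured libraries, 0 and 1.59 CPM at day 3, 3.86 CPM at day 5 and 0.677 CPM at day 7, with log2 fold changes of -4.62 ± 0.68 for fractured (adjusted p = 0.00668) and -5.56 ± 0.95 for day 3 (adjusted p = 0.00588) against uninjured. Uninjured replicate 2 gave 106 of the 132 UMIs, and without it the fractured comparison was -3.27 with an adjusted p of 0.341. In fibroblast-like nuclei alone Dner was at 0 UMIs in uninjured replicate 1 and 124 CPM in replicate 2. Over the whole list the medians were -0.10 in stromal, 0.05 in endothelial, 0.17 in mural and 0.16 in immune nuclei for fractured against uninjured, beside 0.11, -0.01, -0.01 and 0.15 over all genes. At day 3 none of 26 was called in endothelial nuclei, with 2 at an unadjusted p under 0.05, and none of 22 in immune nuclei, with 0. For fractured libraries immune nuclei had no called gene among 23 tested, and none at an unadjusted p under 0.05. IIFC-like nuclei had none of 28 called and 3 at an unadjusted p under 0.05.

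Between classes 29 of the 45 were tested. In endothelial nuclei 7 were higher and 4 lower, beside 14.9% and 12.4% of all genes, led by Nrarp, a feedback inhibitor that is itself a Notch target (4.28 ± 0.40), and by the Fringe enzymes Mfng (3.99 ± 0.38) and Lfng (2.13 ± 0.37). In mural nuclei 3 were higher and 4 lower, beside 12.2% and 10.5%, with Nrarp at 3.57 ± 0.52 and Neurl1b, a ubiquitin ligase that acts on ligands, at 3.24 ± 0.34. Nrarp stood at 9.21 to 43.7 CPM in endothelial nuclei and at or under 0.923 CPM in immune and stromal nuclei, where it rested on 5 UMIs in all. In immune nuclei 10 were higher and 5 lower, beside 22.4% in each direction, and Rbpj, the DNA-binding partner of all Notch receptors, was higher by 2.75 ± 0.28 (adjusted p = 5.48e-08). Immune Rbpj measured 536 and 3810 CPM in the uninjured libraries, 1020.0 and 1072 CPM at day 3, 1184 CPM at day 5 and 991 CPM at day 7, so that the uninjured replicates were the lowest and the highest. In stromal nuclei 2 were higher, Numbl, a relative of the Notch inhibitor Numb (2.12 ± 0.25), and the ubiquitin ligase gene Dtx3 (0.94 ± 0.20), and 8 were lower, beside 17.5% and 10.5% of all genes. The list medians were -0.004, -0.02, -0.22 and 0.28 in stromal, endothelial, mural and immune nuclei, beside 0.02, -0.03, -0.07 and -0.04 over all genes.

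The Notch list that the study scored holds 13 genes, 5 of them members here. How the study chose it is not given in the sources used here, so it is described by counts and is no independent evidence of a direction. Between classes 2 of its genes were higher and 3 lower in stromal nuclei, 3 and 4 in endothelial, 4 and 1 in mural and 4 and 4 in immune nuclei, beside 17.5% and 10.5%, 14.9% and 12.4%, 12.2% and 10.5%, and 22.4% and 22.4% of all genes. By edgeR, no gene of it was called in a time comparison, with 0 to 3 at an unadjusted p under 0.05, or in IIFC-like nuclei, with 2, where the list's median was -0.22 over 12 tested genes beside -0.04 over all genes.

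The genes with levels most like each member over the 23 class-by-library sums were ranked by Pearson's r of log2(CPM + 10) among 11681 genes, as a description, since sums of the same library share depth and animals. Notch3 was most like Stac (r = 0.97), Gucy1a2 (0.96) and Map3k7cl (0.96). Dll4 was most like Exoc3l2 (r = 0.97), Robo4 (0.97) and Nr5a2 (0.96), and Jag2 like Hoxb6 (0.98), Mall (0.98) and Nova2 (0.97). Notch4 was most like Rasip1 (r = 0.94), Egfl7 (0.93) and Nos3 (0.92), and Dll1 like Fam174b (0.94), Klhl4 (0.92) and Hid1 (0.92). Heyl was most like Fhl5 (r = 0.94), Gm6249 (0.93) and Ephx3 (0.93). The likeness was weaker for Notch1 (Sh2d3c, 0.89, Pqlc1, 0.87, and Eng, 0.84), Notch2 (Itsn1, 0.88, Myo5a, 0.87, and F13a1, 0.85), Jag1 (Map2, 0.88, Gjc1, 0.88, and Cabp1, 0.88) and Hes1 (Selenow, 0.89, Nr2f2, 0.83, and Cttnbp2, 0.81).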

How the data were processed

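Nuclei of 6 libraries were counted by the authors with Cell Ranger 6.0.0 or 7.1.0, intronic and exonic reads included, and the authors deposited raw UMI counts per gene and barcode (build mm10 per the labels). Doublet removal before deposit is not given in the sources used here.

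The filters kept nuclei in which 200 to 5000 genes were detected and in which mitochondrial UMIs were below 2% and ribosomal UMIs below 1.5%, as in the study's methods. Scrublet (scanpy 1.11.5, expected rate 0.06) marked 52 nuclei (0.645%), which were kept in the reported values and removed in an alternative. Clusters of myogenic nuclei were removed, first within each library. The remaining nuclei were integrated with Seurat 5.3.0 (canonical correlation, 20 principal components, resolution 1.3) without the Notch genes among the features. Clusters were named from fixed marker lists, needing at least 3 detected markers.

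Raw counts were summed per class and library (at least 10 nuclei) and tested with edgeR 4.0.16 (filterByExpr, TMM, quasi-likelihood), with Benjamini-Hochberg adjustment over all genes tested and a threshold of 0.05. DESeq2 1.42.0 was an alternative. Replicate numbers were given in order of listing. The fits were tested on simulated data. Nothing states that replicates came from separate animals beyond the pools, so p-values measure the spread between libraries. Poisson and binomial intervals, and floors of 3 counts for an observed 0, cover counting error only. Free RNA was not removed. Shares were compared after thinning to 500 UMIs, leaving out shallower nuclei.

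The 10 genes always named, the list of 45 pathway genes and the comparisons were chosen with earlier results of these data known. Of the pathway list, genes past the threshold were named, up to 8 in a comparison. For likeness, the 3 genes with the highest r were named. The ETS motif was chosen after the promoter sequences had been searched. Promoters came from RefSeq, with 8 of 10 members matched. Alternatives were another normalization (RLE), no filter on low counts, resolution 0.8, no integration, doublets or the top 6% of doublet scores removed, no minimum of nuclei, the software version as a term, no library term, unnamed clusters in their closest class, and leaving out each library. Removing the top doublet scores and counting unnamed clusters in their closest class were chosen after seeing the data.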

Additional observations from a re-analysis of the deposited data

How the results depend on the processing

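Of the counts of members called, 176 kept their value within 1.5 times and 6 did not; of the levels and shares, 41 moved by less than the spread between libraries and 19 by more; of the values of single genes, 927 kept their direction and side of the threshold, 33 lost a call, 8 gained one and 1 reversed. In the mural comparison of day 3 with uninjured, no member was called with no minimum of nuclei (0 of 4 tested) or without day 3 replicate 1 (0 of 6, with 1 library against 2, the lone one assumed to vary like the others), and other settings gave no fit. For fractured against uninjured mural nuclei the count of 0 became 1 (Heyl) with the software version as a term, and ranged from 0 to 1 when a library was left out. In the class contrasts, leaving out a library gave 3 to 8 called members in stromal nuclei (3 without day 5), 5 to 9 in endothelial nuclei (5 without day 5, and 5 with no library term), 4 in mural nuclei and 4 to 5 in immune nuclei, where 8 were called with doublets removed. The stromal Notch3 value reversed to 0.23 with unnamed clusters in their closest class. The cause of these changes was not tested. Shares moved with the thinning setting, which changes the nuclei included as well as their depth, since shallower nuclei are left out. At 1000 UMIs they were 17.9% for Notch1, 40.7% for Notch2, 68.7% for Notch3, 6.70% for Notch4 and 28.5% for Jag1. At the same depth they were 5.88% for Jag2, 4.13% for Dll1, 5.59% for Dll4 and 7.72% for Hes1. Without thinning they were 37.0%, 39.5%, 78.7%, 14.9%, 58.1%, 14.7%, 8.55%, 11.3% and 13.8% in the same order, and 14.8% for Heyl. Counts over all genes moved more. For day 3 stromal nuclei 608 became 373 by DESeq2 and 954 with unnamed clusters in their closest class, and for day 3 immune nuclei 12 became 51 by DESeq2, 93 with no filter on low counts, 22 with doublets removed and 29 with the top doublet scores removed. For fractured immune nuclei 6 became 66 by DESeq2 (15 higher, 51 lower), 252 with no filter, 10 at resolution 0.8, 31 with the version term and 0 with the top doublet scores removed. With no filter the day 3 endothelial count went from 261 to 733 (116 with the version term), fractured stromal from 569 to 1643 (804 higher, 839 lower), fractured endothelial from 604 to 1143 and the stromal class from 2253 to 3399. With no library term the stromal class gave 1501, the endothelial class 1461 instead of 2196 and the IIFC comparison 3 instead of 409, which was 624 to 651 under 4 other settings. Without integration the stromal and immune day 3, fractured immune and IIFC comparisons could not be fitted. No paired analysis was possible because the replicate numbers only follow the order of listing. Days 5 and 7 have 1 library each, and the scarcer members have under 10 UMIs in many class and library pairs, which limits the precision of their values.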

Other observations

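An unnamed cluster of 42 nuclei led by Pax7, Chodl and Calcr, genes known from muscle satellite cells, stood outside the 4 classes and held Notch3. Notch3 measured 834 CPM there (interval 681 to 1010.0, on 104 UMIs), and Heyl measured 88.2 CPM (44.0 to 158, on 11 UMIs). Notch2 measured 297 CPM, Jag1 88.2 CPM and Hes1 48.1 CPM (17.6 to 105, on 6 UMIs). No Dll1 or Dll4 UMI was found, which allows up to 24.1 CPM of each.

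Another unnamed cluster led by Luzp2 and Ntng1, with 107 nuclei, held 44.9 CPM of Notch3, 56.7 CPM of Hes1 (36.3 to 84.3) and 120.4 CPM of Jag1.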
